A study of Mus musculus with 16 samples.

Results

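The genes described here are 9 transcription factors that specify and maintain cortical interneurons, namely the distal-less homeobox genes Dlx1, Dlx2, Dlx5 and Dlx6, the LIM homeobox gene Lhx6, and Sox6, Prox1, Maf and Nr2f2. They were found by their names among the 36930 entries of the deposited table, where each name stood for 1 entry. Of the 9 genes, 8 passed the filter on low values, which 21183 entries passed. Dlx6 was listed without a single read in each of the 16 pups.

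Cortical interneurons release GABA and are born outside the cortex, in the ganglionic eminences and the preoptic area of the ventral forebrain, from where they migrate into the cortex. Dlx factors act throughout this lineage. Lhx6, Sox6 and Maf serve mainly the cells from the medial ganglionic eminence, which become somatostatin and parvalbumin interneurons, whereas Prox1 and Nr2f2 (COUP-TFII) mark mainly the cells from the caudal eminence, including those that express VIP or reelin.

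RNA was sequenced from the whole cortex of pups at postnatal day 7, with 8 Avil-ChR2 and 8 ChR2-flfl pups of the strain C57BL6. All pups carried a floxed stop cassette in front of a channelrhodopsin-2/td-Tomato fusion in the Rosa26 locus, and all were kept under blue light for 1 h per day on days 1 to 5. Avil-ChR2 pups carried in addition a Cre transgene driven by the advillin promoter, and the controls were Cre-negative. In the first week of life the promoter was taken by the study to act mostly in peripheral nociceptors, and whether Cre acted in cortical cells was not tested here. The comparison asks whether these genes differed in the cortex between genotypes after the light that served as early-life pain (ELP). Since no Avil-ChR2 pups without light were sequenced, ELP and the Cre genotype itself cannot be told apart.

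The libraries held 30549126 to 48711134 reads. Values are CPM, read counts scaled to a common library size with TMM factors. Avil, the gene whose promoter drives Cre, had 1.07 ± 0.199 CPM in ChR2-flfl and 39.7 ± 2.89 CPM in Avil-ChR2 cortices (mean ± SD, n = 8 each). The genotypes did not overlap, so that Avil was in accord with the genotype label in each of the 16 pups. The sexes were 4 male and 4 female ChR2-flfl pups, and 3 male and 5 female Avil-ChR2 pups, according to the labels. The pups were numbered 26 to 33 and 35 to 42, with 4 of each genotype in either series, and values are also given within each series, although the labels do not say what the numbers mark.

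GABAergic identity of the tissue was present in each pup. The summed level of Gad1, Gad2 and Slc32a1, which make GABA and load it into vesicles, was 189 to 216 CPM in ChR2-flfl and 197 to 227 CPM in Avil-ChR2 cortices. Markers of neighboring regions were low to moderate. The 8 markers of striatal projection neurons, a GABAergic type rich in Dlx transcripts, summed to 107 to 132 CPM in ChR2-flfl and 97.3 to 145 CPM in Avil-ChR2 pups, with Isl1 and Six3 below the filter, and the 5 markers of olfactory bulb neurons, which include Dlx-expressing cells, to 16.6 to 32.5 CPM and 14.8 to 27.0 CPM, with Eomes below it. Sox6 is also made by oligodendrocyte precursors, whose 6 markers summed to 226 to 275 CPM and 225 to 273 CPM, and Maf and Nr2f2 also by microglia and vascular cells, respectively. The 8 microglia markers summed to 242 to 325 CPM and 237 to 299 CPM, and the 8 endothelial and mural markers to 259 to 293 CPM and 258 to 307 CPM. The 5 markers of dentate granule cells, which express Prox1, reached only 5.65 to 8.71 CPM and 5.91 to 7.76 CPM, and the 3 thalamic markers 3.20 to 4.79 CPM and 3.18 to 4.50 CPM, with Gbx2 below the filter. No gene of these marker lists other than Slc17a7 differed between genotypes even at an unadjusted limma p under 0.05, beside 5.41% of all genes. What each cell type added to the level of a shared gene was not tested.

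The Dlx genes stand in 2 pairs of neighbors in the genome. In the coordinates of the deposited table (GRCm38), Dlx1 spans chr2:71528041-71533981 on the plus strand and Dlx2 spans chr2:71543408-71546754 on the minus strand, with 9426 bases between them. Dlx6 spans chr6:6863334-6867970 on the plus strand, and Dlx5 spans chr6:6877801-6882068 on the minus strand. The other genes stand alone and are all on the minus strand, Lhx6 at chr2:36081950-36105997, Sox6 at chr7:115470872-116040484, Prox1 at chr1:190118035-190170825, Maf at chr8:115703253-115706894 and Nr2f2 at chr7:70351946-70366746. The promoters of Dlx1 and Dlx2 are shown because levels of these neighbors varied together across pups, and that of Nr2f2 because it varied with Maf. They are RefSeq windows of GRCm38.p6 from 250 bases before to 50 bases after a transcription start, written in the direction of the gene, at chr2:71529195-71529494 (Dlx1), chr2:71546705-71547004 (Dlx2) and chr7:70366697-70366996 (Nr2f2). Capitals mark each match, on either strand, of the GC box GGGCGG, the CCAAT box or the E-box CACGTG, none of which overlap each other here.
Dlx1: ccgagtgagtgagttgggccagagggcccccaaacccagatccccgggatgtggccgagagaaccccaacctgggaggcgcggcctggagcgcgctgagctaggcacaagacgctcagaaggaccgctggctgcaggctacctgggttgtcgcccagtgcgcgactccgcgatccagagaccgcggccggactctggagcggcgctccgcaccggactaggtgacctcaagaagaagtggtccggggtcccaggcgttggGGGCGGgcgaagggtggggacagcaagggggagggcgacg
Dlx2: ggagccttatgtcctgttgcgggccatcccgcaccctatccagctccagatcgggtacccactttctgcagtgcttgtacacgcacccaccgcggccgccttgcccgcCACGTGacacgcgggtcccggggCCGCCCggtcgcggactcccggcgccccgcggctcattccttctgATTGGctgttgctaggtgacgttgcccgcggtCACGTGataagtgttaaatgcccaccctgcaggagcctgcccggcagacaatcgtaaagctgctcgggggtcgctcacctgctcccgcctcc
Nr2f2: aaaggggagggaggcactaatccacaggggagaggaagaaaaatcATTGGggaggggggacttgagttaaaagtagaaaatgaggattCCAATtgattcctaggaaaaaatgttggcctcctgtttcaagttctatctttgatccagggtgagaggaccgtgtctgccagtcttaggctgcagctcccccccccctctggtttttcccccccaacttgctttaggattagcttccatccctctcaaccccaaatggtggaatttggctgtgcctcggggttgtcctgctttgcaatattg
Of 32851 such windows of all genes, 35.7% held a GGGCGG, 37.4% a CCAAT and 7.15% a CACGTG. The Dlx1 window held 1 GGGCGG, and the Dlx2 window held 1 GGGCGG, 1 CCAAT and 2 CACGTG. Neither held TAATTA, the core of many homeodomain sites, which was found in 5.29% of all windows, nor TATAAA, found in 13.6%. The Nr2f2 window held 2 CCAAT and none of the other motifs searched. The G and C content was 69.3% for Dlx1, 66.3% for Dlx2 and 49.7% for Nr2f2, beside a median of 52.7% over all windows. These matches describe the letters only.

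Dlx6 had no reads, and its place in the table sets it apart from the other 8 genes. The whole of its entry, 4637 bases, lies inside that of Dlx6os1, a long noncoding RNA transcribed from the opposite strand, which spans chr6:6820546-6869533 and had 565 to 1035 reads per pup. Dlx6os2, which also lies inside Dlx6os1, had no reads either, and nor did Sox6os, which lies inside Sox6. The same held for many entries. Of 713 protein-coding genes that lie wholly inside another entry, 579 (81.2%) had no reads in any pup, in comparison with 1705 of 19225 (8.87%) of those that do not. The microglia gene P2ry12, inside Med12l, and the oligodendrocyte precursor gene Gpr17, inside Lims2, were among the genes listed at 0. How reads of overlapping genes were assigned is not stated in the sources used here, and the part of this arrangement in the missing Dlx6 reads was not tested. Nothing can therefore be said about the level of Dlx6 in these cortices.

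**Figure D1:**
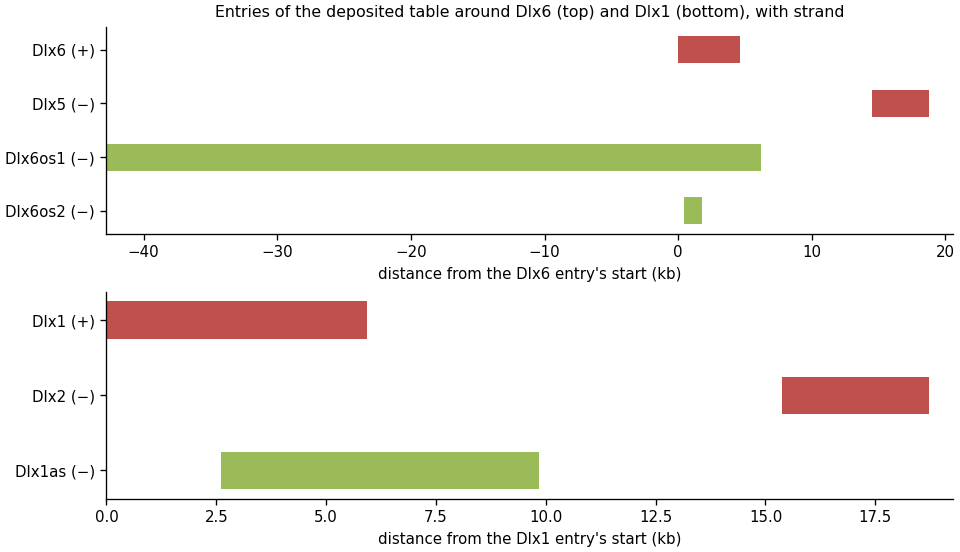
Entries of the deposited table around Dlx6 (top) and Dlx1 (bottom), plotted by their distance in kb from the start of the Dlx6 or Dlx1 entry, with the strand in parentheses. Red bars are the transcription factors and green bars the noncoding transcripts. Dlx6 and Dlx6os2 lie wholly inside Dlx6os1, whereas Dlx1 and Dlx1as share 3344 bases.

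Dlx1 and Dlx1as overlap in part, and both had reads. Dlx1as, an antisense RNA, shares 3344 bases with Dlx1 and had 549 to 1199 reads per pup, beside 1221 to 2315 reads of Dlx1. The libraries were made with a stranded kit, but the use of the strand in the counting is not stated. Their reads may therefore have been shared in the overlap. Overlaps of the other genes were small. Prox1 shares 531 bases with LOC102632463, which had 13 to 31 reads, and Nr2f2 shares 1364 bases with B130024G19Rik, which had 17 to 51 reads.

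Levels between genes can be compared per length only, and were divided by the length of the longest GENCODE transcript, or for Maf by the shorter deposited span of 3642 bases. In ChR2-flfl cortices the order was Lhx6 (11.3 ± 0.590 CPM per kb), Dlx1 (9.65 ± 1.10), Maf (8.09 ± 0.607), Sox6 (5.40 ± 0.221), Nr2f2 (3.66 ± 0.216), Dlx5 (2.37 ± 0.310), Prox1 (2.20 ± 0.292) and Dlx2 (2.02 ± 0.421; mean ± SD, n = 8). The ranges of pups overlapped between Lhx6 and Dlx1, between Dlx1 and Maf, between Dlx5 and Prox1 and between Prox1 and Dlx2, so that these neighbors were not separated beyond their spread. With these lengths Maf, Sox6, Nr2f2 and Dlx5 followed each other without overlap. The places of Maf and Sox6 rest on the length taken for Maf, since with its longest GENCODE transcript of 6360 bases Maf had 4.63 ± 0.348 CPM per kb (4.02 to 5.18), below the mean of Sox6 and overlapping its range of 5.16 to 5.72. In Avil-ChR2 cortices, the ranges of Dlx1 and Maf did not overlap and those of Nr2f2 and Dlx5 did, and the mean of Dlx2 (2.15 ± 0.435 CPM per kb) stood above that of Prox1 (2.06 ± 0.265). On the same scale Gad1 had 27.6 ± 0.947 and Gad2 11.6 ± 0.491 CPM per kb in ChR2-flfl pups.

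None of the 8 genes with values passed the test of a difference between Avil-ChR2 and ChR2-flfl cortices (limma, Benjamini-Hochberg adjusted over 21183 genes, lowest adjusted p = 0.927 for Sox6). Across all genes 0.00944% passed an adjusted p of 0.05, namely 2 genes. At an unadjusted p under 0.05, 0 of the 8 passed beside 5.41% of all genes. With limma-voom on the recovered reads, 0 of the 8 did so beside 1209 of all 21183 genes. For none of the 8 were the pups of the genotypes fully separated, which was so for 0.0283% of all genes. The 8 log2 differences ranged from -0.09 to 0.10 with a median of -0.03, in comparison with a median of 0.00 over all genes, and 6 of the 8 were below 0. In whole cortex, fewer cells of a type and less RNA per cell cannot be told apart, and a change in a subset of interneurons can be diluted.

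**Figure D2:**
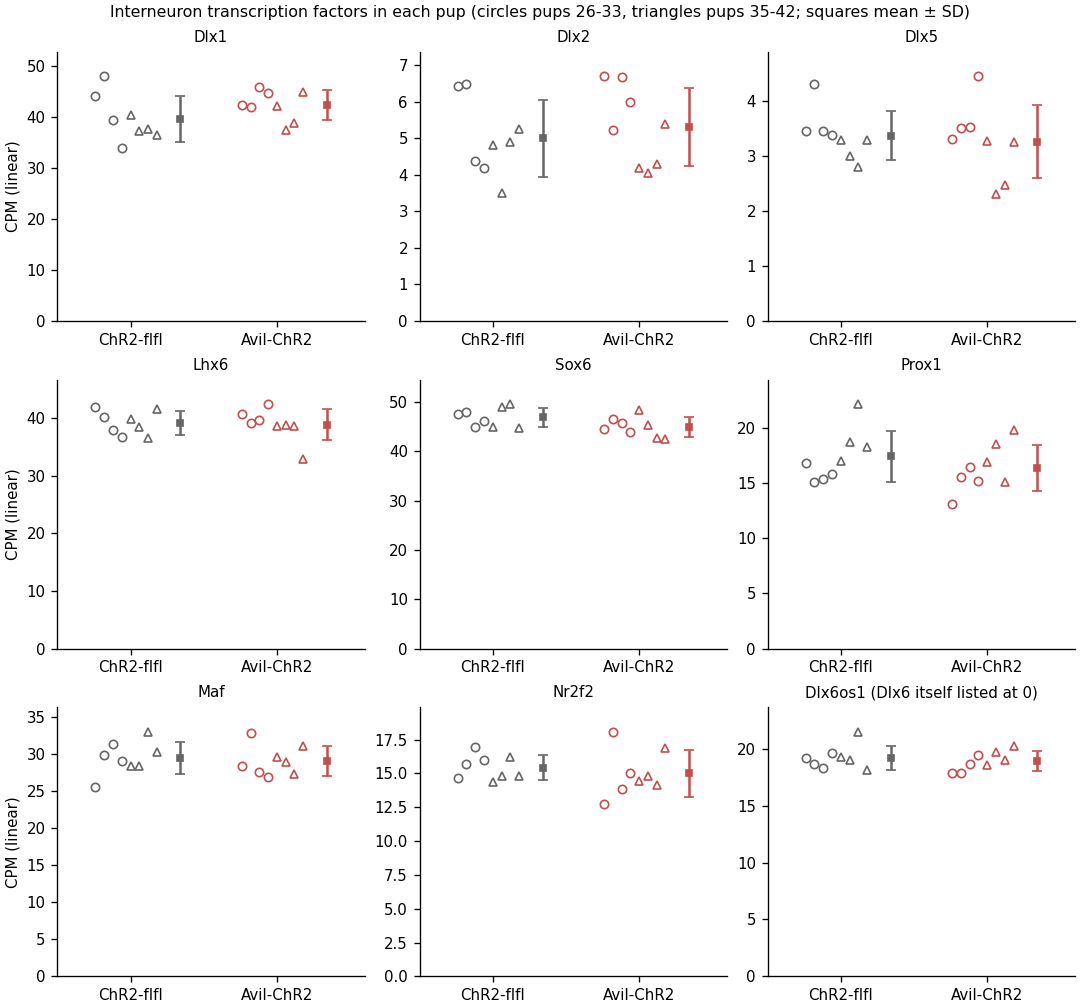
CPM of each gene in each pup on a linear axis that starts at 0, ChR2-flfl in grey and Avil-ChR2 in red. Circles are pups numbered 26 to 33, triangles pups numbered 35 to 42, and squares with bars the mean ± SD of the 8 pups. Genotypes overlap in each panel, whereas Dlx5 is lower and Prox1 mostly higher in the triangles.

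Dlx1 and Dlx2, the pan-interneuron homeobox genes that act first in the eminences, had means above those of the controls in Avil-ChR2 cortices, within the spread of pups. Dlx1 ranged from 33.9 to 48.0 CPM with a median of 38.6 in ChR2-flfl pups, and from 37.6 to 46.0 CPM with a median of 42.3 in Avil-ChR2 pups. All 8 Avil-ChR2 pups fell inside the range of the controls. This gave a log2 difference of 0.10 with a standard error of 0.06 (limma adjusted p = 0.945), and a 95% interval for the fold of 0.981 to 1.17. Among the lower-numbered pups it was 0.09, and among the higher-numbered pups 0.10. Without ChR2-flfl replicate 2, the pup with the highest Dlx1 level, the log2 difference was 0.14, which passed an unadjusted p of 0.05 and not the adjusted test (limma adjusted p = 0.566).

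Dlx2 was sparse. It ranged from 3.51 to 6.47 CPM with a median of 4.86 in ChR2-flfl pups, and from 4.05 to 6.69 CPM with a median of 5.31 in Avil-ChR2 pups. The genotypes overlapped, and 2 Avil-ChR2 pups exceeded the highest control. Its log2 difference of 0.09 ± 0.13 had the widest interval of the 8 genes, from 0.879 to 1.29-fold (limma adjusted p = 0.982). The sign changed with the series (0.22 for pups 26 to 33, -0.04 for pups 35 to 42). Dlx2 had 5.75 ± 1.03 CPM in pups 26 to 33 and 4.55 ± 0.649 CPM in pups 35 to 42 (mean ± SD, n = 8 each).

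Dlx5, a later-acting member of the family, ranged from 2.80 to 4.31 CPM with a median of 3.34 in ChR2-flfl pups, and from 2.31 to 4.46 CPM with a median of 3.29 in Avil-ChR2 pups. The genotypes overlapped, with 2 Avil-ChR2 pups below the lowest control and 1 above the highest. The log2 difference was -0.06 ± 0.12 (limma adjusted p = 0.985), for a fold between 0.809 and 1.13. Pup number separated this gene more than genotype did. Pups 26 to 33 had 3.31 to 4.46 CPM and pups 35 to 42 had 2.31 to 3.30 CPM, so that the series did not overlap. The gap was far smaller than the counting error, since the nearest pups had 3.314 CPM (162 reads) and 3.301 CPM (160 reads). Of all genes, 0.0803% were separated in this direction and 0.142% in either direction, and Dlx5 was 1 of 8 genes looked at. Dlx6os1, which covers Dlx6, had 19.2 ± 1.05 CPM in ChR2-flfl and 18.9 ± 0.853 CPM in Avil-ChR2 cortices. The difference in log2 CPM was -0.02 ± 0.04 (adjusted p = 0.985, limma), and Dlx1as had 18.9 ± 2.72 and 17.4 ± 1.66 CPM, a log2 difference of -0.11 ± 0.08 (adjusted p = 0.945, limma). Dlx1 and Dlx1as thus stood on opposite sides of 0, neither passing the test.

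The genes of the medial eminence lineage had the narrowest spreads. Lhx6, which directs young interneurons into the cortex and is needed for somatostatin and parvalbumin cells, ranged from 36.5 to 42.0 CPM with a median of 39.1 in ChR2-flfl pups, and from 32.9 to 42.5 CPM with the same median of 39.1 in Avil-ChR2 pups. The Avil-ChR2 pups lay on both sides of the controls, with 1 above the highest and 1 below the lowest of them. The log2 difference was -0.01 ± 0.04 (limma adjusted p = 0.992), and its 95% interval allowed folds from 0.931 to 1.06. By series it was 0.05 (pups 26 to 33) and -0.07 (pups 35 to 42).

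Sox6, which acts after Lhx6 in the positioning and maturation of these cells, came nearest to a difference in the fit without covariates. Its values ran from 44.7 to 49.6 CPM with a median of 46.9 in ChR2-flfl pups, and from 42.4 to 48.3 CPM with a median of 44.9 in Avil-ChR2 pups. Of the 8 Avil-ChR2 pups, 7 were below the control mean and 4 below the lowest control. The log2 difference of -0.06 ± 0.03 did not pass the test (limma adjusted p = 0.927), and the interval ran from 0.914 to 1.00-fold. Both series gave the same sign, at -0.05 (pups 26 to 33) and -0.08 (pups 35 to 42). It passed an unadjusted p of 0.05 without ChR2-flfl replicate 8 (-0.07) and without Avil-ChR2 replicate 5 (-0.08), but not the adjusted test (limma adjusted p = 0.99 and 0.94).

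Maf (c-Maf), which favors somatostatin cells, ranged from 25.6 to 33.0 CPM with a median of 29.4 in ChR2-flfl pups, and from 26.9 to 32.8 CPM with a median of 28.6 in Avil-ChR2 pups. All Avil-ChR2 pups lay inside the control range. The log2 difference was -0.02 ± 0.05 (limma adjusted p = 0.988), for folds between 0.919 and 1.06.

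The factors of the caudal eminence lineage were likewise not separated. Prox1, which is required for the migration and maturation of VIP cells and other caudal types, ranged from 15.1 to 22.1 CPM with a median of 16.9 in ChR2-flfl pups, and from 13.1 to 19.8 CPM with a median of 15.98 in Avil-ChR2 pups. Of the 8 Avil-ChR2 pups, 6 were below the control mean and 1 below the lowest control. The log2 difference was -0.09 ± 0.08 (limma adjusted p = 0.954), for folds between 0.833 and 1.06, and it was -0.07 and -0.11 in the lower- and higher-numbered pups. By series, Prox1 had a median of 15.5 CPM in pups 26 to 33 (13.1 to 16.8) and 18.4 CPM in pups 35 to 42 (15.1 to 22.1). These ranges overlapped, whereas those of Dlx5 were barely apart, and the difference between the series was not tested.

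Nr2f2, a nuclear receptor of the caudal lineage, ranged from 14.3 to 16.9 CPM with a median of 15.3 in ChR2-flfl pups, and from 12.7 to 18.1 CPM with a median of 14.6 in Avil-ChR2 pups. The Avil-ChR2 pups were spread more widely, with 1 above the highest and 3 below the lowest control. The log2 difference was -0.05 ± 0.06 (limma adjusted p = 0.978), with folds from 0.887 to 1.06 inside the interval. The series gave -0.09 (pups 26 to 33) and 0.00 (pups 35 to 42).

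**Figure D3:**
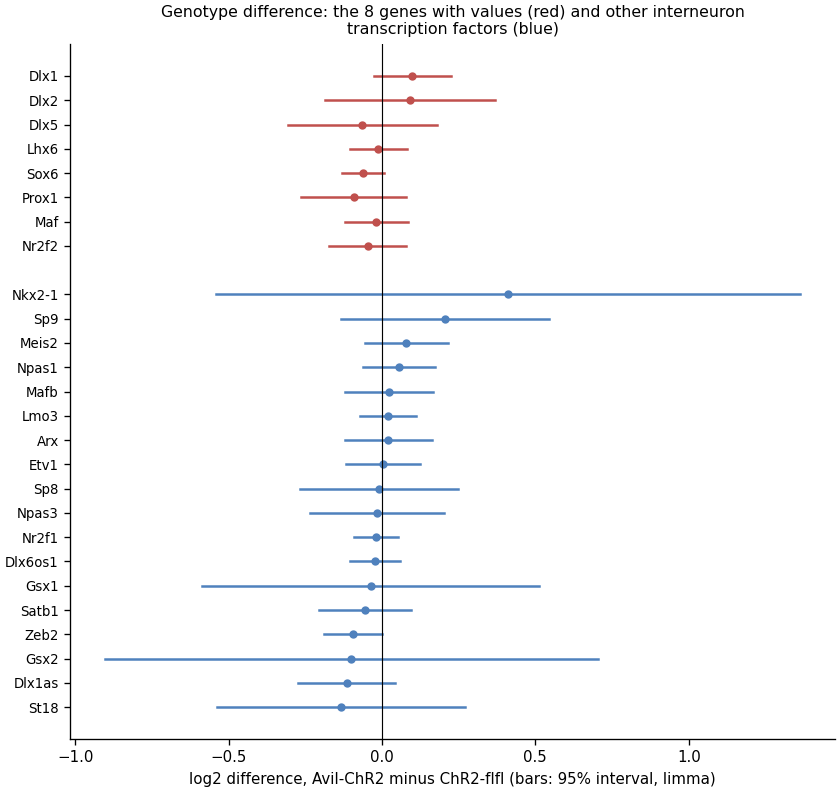
Log2 difference in CPM, Avil-ChR2 minus ChR2-flfl, with its 95% interval (limma, n = 8 per genotype), for the 8 genes (red) and other interneuron lineage genes that passed the filter (blue). Each interval includes 0, and the widest belong to the low-level genes Nkx2-1, Gsx1, Gsx2 and St18.

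The data thus bounded how large a difference could have gone unseen in whole cortex. The 95% intervals of all 8 genes lay within 0.809 to 1.29-fold, and those of 7 genes stayed within 25% of no difference in either direction, Dlx2 being the exception. These bounds hold for the fit without covariates. With the length slope described next as a covariate, the interval of Dlx5 reached down to 0.724-fold, and those of the other 7 genes stayed within 25%. The spread within genotype exceeded the counting error of the reads in each gene. The coefficient of variation between pups was 4.25% for Sox6, 6.21% for Lhx6, 7.24% for Maf, 9.08% for Nr2f2, 9.47% for Dlx1, 13.1% for Prox1, 17.1% for Dlx5 and 20.6% for Dlx2. Counting alone would give 2.16% for Sox6, 8.12% for Dlx5 and 6.58% for Dlx2, and between 2.29% and 3.75% for the other 5 genes.

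A slope of log2 levels on transcript length differed between genotypes. It was computed from the expression values, and whether it arose in the libraries or in the tissue was not tested. For each pup, the slope of its log2 deviations on the log10 length of the transcripts was 0.03 ± 0.07 in ChR2-flfl and -0.03 ± 0.03 in Avil-ChR2 pups (mean ± SD, n = 8 each, two-sided exact permutation p = 0.0381). Across pups, with the genotype mean subtracted, Prox1 rose with this length slope (r = 0.666, permutation p = 0.00487, adjusted over 8 genes 0.039, Spearman's rho = 0.721, permutation p = 0.0022, adjusted 0.0176; r = 0.601 without the 2 most extreme pups, 0.531 in pups 26 to 33 and 0.656 in pups 35 to 42). Sox6 also rose with the length slope, without passing the adjusted test (r = 0.513, adjusted permutation p = 0.172, Spearman's rho = 0.556, adjusted permutation p = 0.111). Its r was 0.734 without the 2 most extreme pups, 0.248 in pups 26 to 33 and 0.87 in pups 35 to 42. Adding the slope to the limma fit turned the log2 difference of Prox1 from -0.09 to 0.05 and that of Dlx2 from 0.09 to -0.03. It moved that of Dlx5 from -0.06 to -0.20 ± 0.13, and with the GC slope (given further on) added as well to -0.17 ± 0.12. The log2 difference of Dlx1 shrank from 0.10 to 0.03 with the length slope, and that of Sox6 from -0.06 to -0.02. With both slopes they were 0.07 and -0.03. Neither fit gave a member an unadjusted p under 0.05, beside 785 of all genes with the length slope and 842 with both slopes. The part of the length slope in the differences was not tested further.

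The levels relative to the GABAergic genes did not pass a test either. The mean log2 CPM of Gad1, Gad2 and Slc32a1 was 5.93 ± 0.08 in ChR2-flfl and 5.97 ± 0.09 in Avil-ChR2 pups (mean ± SD, n = 8, two-sided exact permutation p = 0.326). After subtraction of this mean in each pup, the log2 differences ranged from -0.14 for Prox1 to 0.06 for Dlx1. The smallest p was that of Sox6, with -0.38 ± 0.11 in ChR2-flfl and -0.49 ± 0.11 in Avil-ChR2 pups, a difference of -0.10 (two-sided exact permutation p = 0.0892, not adjusted, 8 genes compared). The exact permutation p of the other 7 genes lay between 0.282 and 0.707.

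The remaining genes of the interneuron program were read from the same fit. Of 22 other lineage factors and Dlx antisense transcripts, 19 passed the filter, and their median log2 difference was -0.02. Of these, 0 had an unadjusted p under 0.05 in either direction (limma), beside 5.41% of all genes. Lhx8, Dlx3 and Dlx4, which did not pass, had at most 4, 2 and 2 reads in any pup. Among those with a mean log2 CPM of at least 0, the genes named are Sp9 (log2 difference 0.21 ± 0.16) and Dlx1as (above). Neither passed the test.

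Of 24 interneuron products, which include the GABA genes, peptides, calcium-binding proteins and receptors, all passed the filter. At an unadjusted p, 2 were lower in Avil-ChR2 cortices and 0 were higher, in comparison with 3.46% and 1.95% of all genes, and none passed the adjusted test. Their median log2 difference was 0.03. Erbb4, the neuregulin receptor of interneurons, had 98.7 ± 9.02 CPM in ChR2-flfl and 87.0 ± 2.49 CPM in Avil-ChR2 pups, a log2 difference of -0.18 ± 0.04 (limma adjusted p = 0.691). Reln, which encodes the extracellular protein reelin, had 321 ± 38.8 and 290 ± 25.5 CPM, a log2 difference of -0.14 ± 0.07 (limma adjusted p = 0.908). The next largest among those with a mean log2 CPM of at least 0 was Sst, the peptide of the cells that Lhx6, Sox6 and Maf serve, at 43.5 ± 7.99 and 47.2 ± 8.03 CPM with a log2 difference of 0.12 ± 0.12 (limma adjusted p = 0.954). Among the excitatory markers, Slc17a7 was higher at an unadjusted p only, with a log2 difference of 0.11 ± 0.05 (limma adjusted p = 0.884).

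Male and female pups were compared in the same way with genotype as a covariate. At an unadjusted p under 0.05, 2 of the 8 genes differed, beside 4.46% of all genes, and none passed the adjusted test (limma adjusted p = 0.988 for both), which 0.0425% of all genes did. Dlx5 ranged from 2.31 to 3.46 CPM with a median of 3.29 in 7 males and from 3.01 to 4.46 CPM with a median of 3.46 in 9 females, with a log2 difference of -0.27 (male minus female). Nr2f2 ranged from 12.7 to 16.2 CPM with a median of 14.7 in males and from 13.9 to 18.1 CPM with a median of 15.7 in females, with a log2 difference of -0.12. The sexes overlapped in both genes. Sex and pup number were not balanced, since pups 26 to 33 held 2 males and 6 females and pups 35 to 42 held 5 males and 3 females, and the Dlx5 difference within these series was -0.15 and -0.18, that of Nr2f2 -0.22 and -0.05. One label matters as well. A supplementary list of the study gives Avil-ChR2 replicate 4 as male. With this sex the differences were -0.15 for Dlx5 and -0.12 for Nr2f2, and neither passed an unadjusted p of 0.05. Of all genes, 9 passed the adjusted test with the sexes of the labels and 11 with those of the list. Which source is right was not tested, so the sex differences of Dlx5 and Nr2f2 rest on this label. The genotype by sex interaction passed an unadjusted p for 0 of the 8 genes and 4.31% of all genes with the sexes of the labels, and an adjusted p for none of the 21183.

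Some of the genes varied together across pups. With the genotype mean subtracted, 3 of 28 pairs of the 8 genes had an adjusted permutation p under 0.05 for Pearson's r over the 16 pups. Dlx1 correlated with Dlx2 (r = 0.736, permutation p = 0.00122, adjusted 0.0297, Spearman's rho = 0.756, permutation p = 0.00132, adjusted 0.0158). Without the 2 pups farthest from the median of Dlx1, r was 0.696, and within the series of pups 26 to 33 and 35 to 42 it was 0.807 and 0.413. Dlx1 also correlated with Dlx5 on another chromosome (r = 0.694, permutation p = 0.00318, adjusted 0.0297, Spearman's rho = 0.744, permutation p = 0.00136, adjusted 0.0158). In this pair r was 0.741 without the 2 pups farthest from the median, 0.551 in pups 26 to 33 and 0.778 in pups 35 to 42. Without subtraction of the genotype mean this pair did not pass (r = 0.59, adjusted permutation p = 0.112, Spearman's rho = 0.588, adjusted permutation p = 0.098), whereas the pair of Dlx1 with Dlx2 and that of Maf with Nr2f2 did. Maf and Nr2f2 formed the third pair (r = 0.709, permutation p = 0.00212, adjusted 0.0297, Spearman's rho = 0.732, permutation p = 0.00175, adjusted 0.0158), with r = 0.642 without the 2 farthest pups, 0.729 in pups 26 to 33 and 0.785 in pups 35 to 42. Dlx2 and Dlx5 passed for rho only (r = 0.635, permutation p = 0.00717, adjusted 0.0502, Spearman's rho = 0.721, permutation p = 0.00226, adjusted 0.0158). For these genes r was 0.566 without the 2 pups farthest from the median of Dlx2, 0.349 in pups 26 to 33 and 0.448 in pups 35 to 42. Lhx6 ran against Maf (r = -0.558), Prox1 (r = -0.541) and Nr2f2 (r = -0.52), with adjusted permutation p of 0.139, 0.139 and 0.16 over the 16 pups (Spearman's rho = -0.538, -0.362 and -0.503, adjusted permutation p = 0.135, 0.42 and 0.152), and none of these pairs passed.

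Levels of Dlx1 and Dlx2 moved across pups with a slope of log2 levels on the G and C content of transcripts. The base composition of the libraries was not measured, and whether this slope arose in the libraries or in the tissue was not tested. The transcripts of Dlx1, Dlx2, Dlx5 and Lhx6 hold 54.6%, 58.3%, 54.7% and 56.2% G and C, above the median of 49.6% over genes with a mean log2 CPM of at least 0, and those of Sox6, Prox1, Maf and Nr2f2 hold 45.3% to 47.4%. For each pup, the slope of its log2 deviations per 10% of transcript G and C was computed over these genes. Dlx1 followed this GC slope (r = 0.765, permutation p = 0.00054, adjusted over 8 genes 0.00432, Spearman's rho = 0.824, permutation p = 0.00018, adjusted 0.00144; r = 0.747 without the 2 most extreme pups, 0.944 in pups 26 to 33 and 0.57 in pups 35 to 42). Dlx2 did so too (r = 0.67, permutation p = 0.0054, adjusted 0.0216, Spearman's rho = 0.7, permutation p = 0.00347, adjusted 0.0139; r = 0.687 without the 2 most extreme pups, 0.894 and 0.385 within the series). Dlx5 passed for rho only (r = 0.548, adjusted permutation p = 0.0707, Spearman's rho = 0.6, adjusted permutation p = 0.0404), and its r fell to 0.279 without the 2 most extreme pups. Lhx6, with a similar base composition, did not pass (r = 0.332, adjusted permutation p = 0.246, Spearman's rho = 0.562, adjusted permutation p = 0.0519), and its r was -0.0559 in pups 35 to 42. After removal of the GC and length slopes, r was 0.461 for Dlx1 with Dlx2, 0.541 for Dlx1 with Dlx5 and 0.647 for Maf with Nr2f2 (adjusted permutation p = 0.24, 0.181 and 0.0914 over 28 pairs and 16 pups; Spearman's rho = 0.385, 0.415 and 0.488, each with an adjusted permutation p of 0.496), and no pair passed for r or rho. The highest r was then that of Dlx1 with Sox6, which had been 0.112 before the removal. It was 0.711 (adjusted permutation p = 0.0521, Spearman's rho = 0.641, adjusted permutation p = 0.255), and 0.564 without the 2 pups farthest from the median. The GC slope itself was -0.01 ± 0.08 in ChR2-flfl and 0.01 ± 0.06 in Avil-ChR2 pups (mean ± SD, n = 8, two-sided exact permutation p = 0.443).

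**Figure D4:**
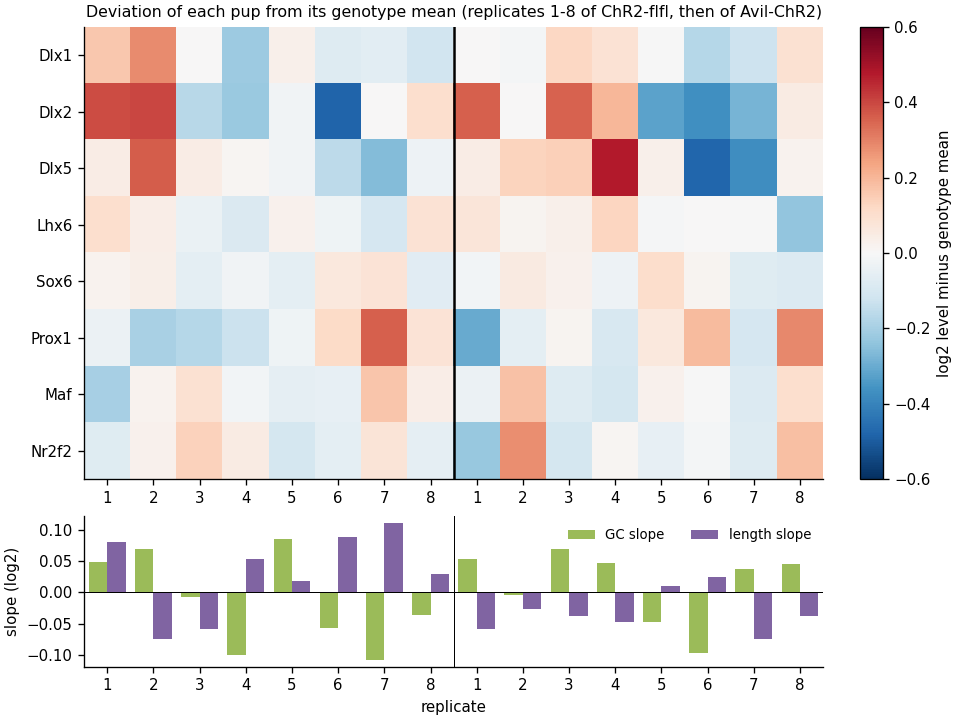
Top, log2 CPM of each gene in each pup minus the mean of its genotype, with replicates 1 to 8 of ChR2-flfl left and of Avil-ChR2 right of the line. Bottom, GC slope (log2 per 10% G and C) and length slope (log2 per 10-fold length) of the same pups. Dlx1, Dlx2 and Dlx5 are high together in ChR2-flfl replicate 2 and low together in Avil-ChR2 replicate 6.

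**Figure D5:**
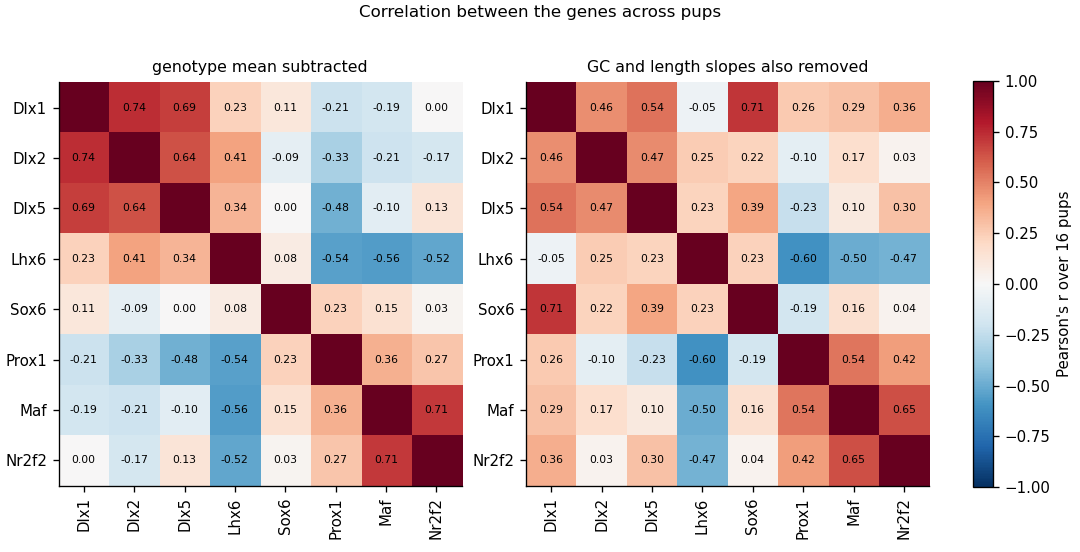
Pearson's r between the 8 genes over 16 pups, with the genotype mean subtracted (left) and with the GC and length slopes also removed (right). The r of Dlx1 with Dlx2 is 0.736 on the left and 0.461 on the right, and that of Dlx1 with Sox6 is 0.112 and 0.711.

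The genes whose pattern over the 16 pups was most like the mean of Dlx1, Dlx2 and Dlx5, among 15129 other genes with a mean log2 CPM of at least 0, were Grcc10 (r = 0.949), H1fx (r = 0.939) and Mrpl57 (r = 0.916). The gene most like each single member was Sarm1 for Dlx1 (r = 0.896), Mrps26 for Dlx2 (r = 0.944), Mrpl57 for Dlx5 (r = 0.908), Lmod3 for Lhx6 (r = 0.875), Ppp3cc for Sox6 (r = 0.865), A430048G15Rik for Prox1 (r = 0.889), Mmrn1 for Maf (r = 0.856) and BC028528 for Nr2f2 (r = 0.848). These are the highest of many correlations over the same pups, which also differed in GC and length slopes, and are given as a description.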

How the data were processed

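Cortices of 16 pups (8 ChR2-flfl, 8 Avil-ChR2) were analyzed by mRNA sequencing. The authors aligned reads of 50 bp or more to mm10 (GRCm38) with SeqMan NGen 17 and annotated them in ArrayStar 17, and the deposited values are CPM scaled with TMM factors from edgeR (version not given in the sources used here). The library kit was stranded (TruSeq), but whether counting used strand is not stated. The table is written with decimal commas. CPM steps gave whole reads for 100% of values to within 0.05. Replicates were not pooled. In the paper the controls were Cre-negative litter mates, so pups can share litters. The labels do not give the litters, and the tests treated the 16 pups as independent.

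Members and lists were chosen with earlier results of these data known. Values were log2 transformed without a pseudocount, and missing values or values below -5 were set to -5 (4432 of 338928 values). Genes with at least 12 of 16 pups above -5 were kept. The genotype comparison used limma 3.58.1 (R 4.3.3, eBayes with trend, two-sided) without covariate, sex with genotype as covariate, and p-values were adjusted (Benjamini-Hochberg) over 21183 genes. P-values measure the spread between pups, and counting intervals are not implied. Ratios to GABA genes were compared by exact permutation and correlations by 100000 permutations (scipy 1.17.1). Since Dlx6 had no values, 28 pairs were tested instead of all pairs of 9 genes. Transcript length and G and C content came from GENCODE M21 (GRCm38), found for 82.5% of genes that passed. The tests were checked on simulated data. RefSeq promoters were found for 6 of 9 genes, not for Dlx5, Dlx6 and Maf. Named genes were the 9 members, and from each list those with an unadjusted p under 0.05 and the 3 with the largest difference at a mean log2 of at least 0, the overlapping genes, the genes most alike across pups, and Avil. A gene that this rule names is not reported here. Med12l, Lims2, P2ry12 and Gpr17 were named after their values were seen.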

Additional observations from a re-analysis of the deposited data

Results flagged for a closer look

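In 3 of 20 groups of 8 pups examined (8 members, Dlx6os1 and Dlx1as in each genotype), the most extreme pup stood apart from the others by more than the 95% critical value of Dixon's test, which chance exceeds in about 1 of 20 groups. Lhx6 was 32.9 CPM in Avil-ChR2 replicate 8, below the 38.7 to 42.5 CPM of the other Avil-ChR2 pups, and the gap was 0.631 of the log2 range. Without this pup the log2 difference of Lhx6 was 0.02 instead of -0.01. Dlx6os1 was 21.5 CPM and Dlx1as 24.9 CPM in ChR2-flfl replicate 7, with gaps of 0.534 and 0.541 of the log2 range to the next pups at 19.6 and 19.5 CPM. This pup had the highest length slope of all pups, 0.112, and the lowest GC slope, -0.108, and the part of these slopes was not tested.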

How the results depend on the processing

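No member passed an adjusted p of 0.05 under any of the genotype alternatives run. The number of all genes that passed was 2 and became 1 with median centring, with the length slope as a covariate, with the length and GC slopes together, in pups 26 to 33 only and in pups 35 to 42 only, and 1 to 2 with 1 pup left out. At an unadjusted p, 672 of all genes passed in pups 26 to 33 only, in comparison with 1145 in all pups and 1159 in pups 35 to 42 only, and the cause was not tested. With 1 pup left out, 929 to 1581 genes and 0 to 1 members did so. The sign of the log2 difference changed for Dlx2 (-0.0316) and Prox1 (0.0508) with the length slope, for Prox1 (0.0448) with both slopes, for Dlx5 (0.0189) and Lhx6 (0.0459) in pups 26 to 33, and for Dlx2 (-0.0377) and Nr2f2 (0.000224) in pups 35 to 42, and the cause was not tested. With 1 pup left out it ranged from -0.132 to 0.00362 for Dlx5, from -0.0301 to 0.0223 for Lhx6 and from -0.0476 to 0.00491 for Maf, and, without a change of sign, from 0.0214 to 0.148 for Dlx2, from -0.0862 to -0.0142 for Nr2f2 and from -0.134 to -0.0417 for Prox1. Relative to the GABA genes, Dlx2 was at -0.0432 in pups 35 to 42 and at -0.0104 to 0.114 with 1 pup left out, and Sox6 at -0.125 to -0.0786, at an exact permutation p of 0.048 without Avil-ChR2 replicate 5. With the sexes of the supplementary list, 0 members differed by sex at an unadjusted p, and 1, Prox1, in the interaction (log2 -0.34, limma adjusted p = 0.799), while the interaction of Lhx6 turned to 0.043. Of the member pairs, 0 passed once both slopes were removed and 2 without subtraction of the genotype mean, in comparison with 3.

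Replicate numbers are serial numbers of different animals, and the correlations of same-numbered pups, from -0.344 to 0.389, did not pair them. A fit with the replicate number as a block gave 1 gene at an adjusted p under 0.05 and 0 members, and 1 of 8 ChR2-flfl pups correlated best with its own number. The limma-voom fit on recovered reads, the slopes of GC content, the removal of slopes and the other length of Maf were chosen after seeing the data. The planned count models (edgeR, DESeq2) on recovered reads were not run. The depth limits Dlx5 and Dlx2 most, with 107 to 213 and 135 to 327 reads per pup.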
